A study of Mus musculus with 9 samples.

Results

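The proteasome genes of mouse muscle were described over a control diet, a high-fat diet and a high-fat diet with L-carnitine. They were taken from the deposited table by name, as the protein-coding features whose symbol starts with Psm, followed by a letter from a to g and a digit, less 1 symbol. The rule gave 48 of 19335 features. No measured value entered it. Each was placed in 1 of 2 classes: 29 genes had no gene overlapping them on the opposite strand, and 19 had one.

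RNA came from muscle of wild-type C57BL/6J mice, an inbred laboratory strain, in 9 libraries, 3 per group. Animals were put into groups at an age of 9 weeks, kept for 2 weeks before the diets began, fed for 8 weeks and fasted for 6 h at the end. The control diet held 10% of its energy as fat and the high-fat diet 60%, and the carnitine group ate the high-fat diet and drank 100 mg/kg/day of L-carnitine, the carrier that brings long-chain fatty acids into mitochondria. The labels name neither the muscle nor a separate mouse for each library, so a p-value reflects how much these libraries varied, and part of that may be technical.

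The proteasome is the protease that degrades proteins tagged with ubiquitin. Its core particle is a barrel of alpha rings, which gate the entry, and beta rings, which hold the cutting sites. A regulatory cap binds ubiquitin, removes it and unfolds the substrate with a ring of ATPases. In muscle this system breaks down myofibrillar proteins, and many of its genes are known to rise together during fasting or disuse.

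The libraries held 2315985 to 3773649 counts, of which 1120 to 3312 fell on the 48 proteasome genes. Levels are CPM, counts divided by a library total that TMM had adjusted. FPKM was used where levels of different genes are compared, since it also divides by gene length. Where a library shows 0 counts of a gene, a level of as much as 3 counts remains possible. With TMM, that limit is 0.696 CPM in high-fat 2 and 1.47 CPM in control 2, and the other libraries lie between. Only counting error enters this limit. The edgeR filter on low counts kept 38 of the 48 genes, 21 of the 29 without an opposite-strand gene and 17 of the 19 with one. The kept genes all had to be detected in several libraries, so counts over them say nothing of the other 10. The defining markers of fast muscle fibres were all detected (10 of 10), with summed levels of 55465 to 82570 CPM in control, 58341 to 72635 in high-fat diet and 42229 to 45839 in carnitine libraries. Carnitine libraries were thus below both other groups, and the part of this in the proteasome values was not tested. In whole tissue, fewer cells of a type and less RNA per cell cannot be told apart.

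The share of counts on features with no opposite-strand gene also differed between libraries. It was 14.5%, 9.55% and 13.0% in control 1, 2 and 3, then 11.8%, 13.1% and 14.2% on high-fat diet and 13.1%, 8.66% and 9.32% with carnitine. Control 2 and carnitine 2 and 3 were the lowest. Within those counts, the 29 proteasome genes held 0.267%, 0.298% and 0.347% in control, 0.402%, 0.393% and 0.364% in high-fat and 0.319%, 0.269% and 0.281% in carnitine libraries. All 3 high-fat libraries lay above all 6 others, with group means of 0.304% ± 0.0407, 0.386% ± 0.0201 and 0.290% ± 0.0261 (SD, n = 3 each). The gap between the lowest high-fat and the highest control library was 0.364% against 0.347%, and their 95% Wilson intervals overlapped. These intervals hold counting error only, not the variation between libraries.

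**Figure D1:**
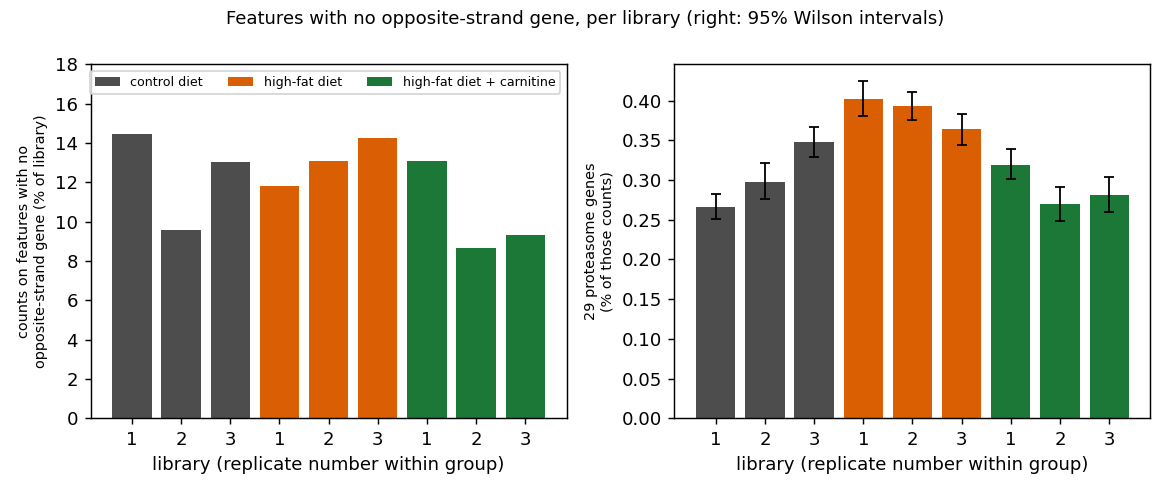
Left, the percentage of each library's counts on features with no opposite-strand gene. Right, the percentage of those counts on the 29 proteasome genes of that class, with 95% Wilson intervals (counting error only). Bars are libraries, coloured by group: the 3 high-fat libraries hold 0.364% to 0.402% on the right, above the 0.267% to 0.347% of control and the 0.269% to 0.319% of carnitine libraries.

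The first question was how the high-fat diet changed proteasome genes in muscle. None of the 38 passed in edgeR's quasi-likelihood test with Benjamini-Hochberg adjustment at 0.05, a rule that called 0.0532% of the 7523 tested features (4 features). At an unadjusted p under 0.05 the count was 1 gene, Psme4, against 6.31% of all features, and DESeq2 and limma-voom also called 0. In 6 genes, Psmb3, Psmc2, Psmd2, Psmd11, Psmd12 and Psme4, every high-fat library was above every control library, against 7.23% of all features. In 0 genes was every high-fat library below every control library, against 6.86% of features. With each class scaled by itself, 5 genes were higher without overlap (Psmb3, Psmc2, Psmd4, Psmd12 and Psme4), against 7.34% of features. Of the genes without an opposite-strand gene, 16 of 21 had a positive log2 fold change, against 59.6% of the tested features of that class. Their median was 0.28 and that of the class 0.12. With each class scaled by itself it was 0.18 beside 0.02 (14 of 21 positive), and with library totals alone 0.47 beside 0.30 (19 of 21). With an opposite-strand gene, 12 of 17 were positive, against 45.5%, with a median of 0.13 beside -0.05 for the class. That median was -0.03 without control 2, 0.06 without high-fat 3 and 0.32 without control 3, and with library totals alone 0.28 beside 0.13.

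The second question was what carnitine changed on that diet. Again 0 of 38 genes passed the adjusted threshold, against 0.0532% of all features. DESeq2 called 1, Psmd4, and limma-voom called 0. At an unadjusted p under 0.05 the count was 7, all lower with carnitine: Psmb2, Psmb4, Psmc1, Psmd4, Psmd7, Psmd8 and Psme4. That rule called 6.58% of all features in the lower direction. Of the 7 genes, 6 were among the 21 without an opposite-strand gene, against 10.8% of that class. Psme4 was the 1 of 17 with one, against 4.20%. In 13 genes every carnitine library was below every high-fat library, against 9.82% of all features. These were the 7 just named and Psmb1, Psmb3, Psmc5, Psmd6, Psmd9 and Psmd11.

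By class, those 13 genes were 11 of the 21 without an opposite-strand gene, against 15.6% of that class, and 2 of the 17 with one, against 6.56%. In the first class 19 of 21 fold changes were negative, against 69.9% of its features, and the median was -0.50 beside -0.32 for the class. The second had 10 of 17 negative, against 39.8%, with a median of -0.15 beside 0.14. When each class was scaled by its own counts, the median of the first class was -0.18 beside -0.01 and 15 of 21 were negative. That of the second was then -0.27 beside -0.02, with 12 of 17 negative, so the order of the class medians turned. On class scaling every carnitine library was below every high-fat library in 6 genes (Psma2, Psmb4, Psmc1, Psmd4, Psmd9 and Psme4), against 8.93% of all features. With library totals alone the second-class median was -0.32 beside -0.06. Without carnitine 2 and 3, which had the low class shares, the first-class median was -0.28 beside -0.08, with 17 of 24 negative. Leaving out carnitine 2 alone gave -0.31. The median of the second class was 0.04 without carnitine 2 and 3 and -0.66 without carnitine 1, so its sign rested on which carnitine libraries were used.

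Carnitine against control was the third comparison, and it shares its libraries with both others. None of the 38 genes passed the adjusted threshold, which 0.425% of features did (32 features), and DESeq2 and limma-voom called 0. At an unadjusted p under 0.05 the count was 4, against 10.4% of features: Psmb2, Psmb4 and Psmd4 were lower and Psmb7 higher with carnitine. Without an opposite-strand gene 13 of 21 fold changes were negative, against 61.5% of the class, and the median was -0.25 beside -0.20. With one, 9 of 17 were negative, against 44.0%, and the median was -0.04 beside 0.08. With each class scaled by itself the medians were -0.013 beside -0.003 and -0.12 beside -0.02. Leaving out 1 library moved the first median to between -0.47 (without carnitine 1) and -0.09 (without control 3), and the second to between -0.33 and 0.11 without the same libraries. Groups did not overlap in 3 genes that were lower (Psmb2, Psmb4 and Psmd13), against 7.18% of features, and in 1 that was higher (Psmb9), against 6.45%. On class scaling the lower genes were Psmb2, Psmd4 and Psmd13, against 7.52%, and the higher ones Psmb9 and Psmd2, against 6.58%. Psmb9 met the filter in no control library.

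**Figure D2:**
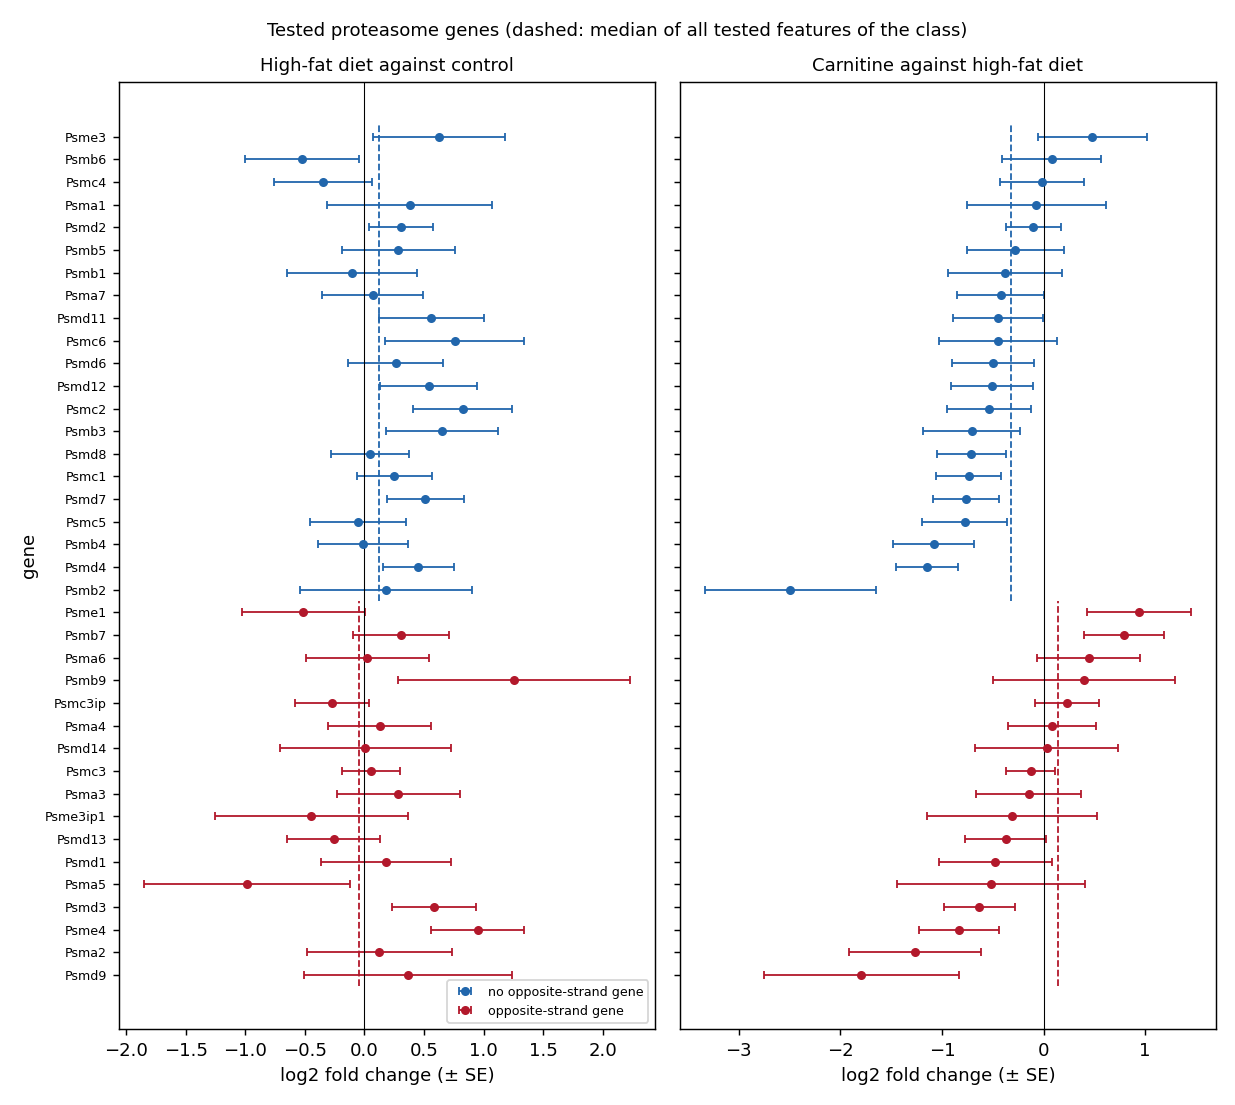
Log2 fold changes with standard errors of the 38 tested proteasome genes, high-fat diet against control on the left and carnitine against high-fat diet on the right, coloured by class; dashed lines are medians of all tested features of the class. On the right, 19 of 21 genes without an opposite-strand gene lie left of 0, around a class median of -0.32, and Psmb2 lies farthest at -2.49.

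Proteasome genes are known targets of the transcription factor Nrf1 (Nfe2l1) through antioxidant response elements, here the letters TGACNNNGC on either strand, and many promoters hold a CCAAT box. Of the 48 genes, 41 had a promoter in the RefSeq table (build GRCm38.p6), and 250 bases upstream of each start were searched. The first motif was in 5 of 41 genes (12.2%), Psmb5, Psmb6, Psmc6, Psmd9 and Psmd12, and in 11.5% of the 27025 genes with a promoter. CCAAT, searched on both strands and able to overlap the other motif, was in 15 of 41 (36.6%) and in 37.5% of all genes. The 120 bases upstream are shown for Psmd4, Psmb4 and Psme4, the genes with promoters and the smallest p in a comparison, and for Psmb5 and Psmb6, genes of catalytic subunits whose windows match the element. Each reads 5′ to 3′ on the gene's strand up to the base before the start, with matches to either motif in capitals.
Psmd4 (chr3:95042615-95042734, minus strand): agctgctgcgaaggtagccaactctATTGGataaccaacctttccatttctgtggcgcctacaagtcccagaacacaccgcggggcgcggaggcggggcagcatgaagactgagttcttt
Psmb4 (chr3:94886959-94887078, minus strand): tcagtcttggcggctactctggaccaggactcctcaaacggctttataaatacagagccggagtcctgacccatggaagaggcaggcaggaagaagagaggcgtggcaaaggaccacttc
Psme4 (chr11:30771655-30771774, plus strand): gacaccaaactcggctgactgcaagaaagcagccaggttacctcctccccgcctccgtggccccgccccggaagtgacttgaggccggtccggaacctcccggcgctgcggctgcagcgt
Psmb5 (chr14:54617996-54618115, minus strand): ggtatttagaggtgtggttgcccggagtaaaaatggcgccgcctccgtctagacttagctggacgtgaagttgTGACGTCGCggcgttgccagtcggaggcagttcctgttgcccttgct
Psmb6 (chr11:70525237-70525356, plus strand): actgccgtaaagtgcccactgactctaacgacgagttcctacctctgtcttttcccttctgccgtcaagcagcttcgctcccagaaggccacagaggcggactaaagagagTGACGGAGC
Psmd4 has a CCAAT box read on the other strand, and the windows of Psmb4 and Psme4 hold no match within these letters.

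Counted levels ranged widely between subunits that form one complex. The strand setting of the counting is not given, so reads of a gene and of its opposite-strand gene cannot be told apart. Psmc3, an ATPase of the cap base, had the highest mean FPKM of the 48 genes, 33.0 over the 9 libraries. Psmc3ip, which is no subunit, followed at 18.3, then Psmc1 at 17.95, Psmd7 at 15.7, Psmc5 at 15.2 and Psmd4 at 15.0, while Psmb1, a beta subunit, was at 1.34. Psmc3ip shares 385 bp of exon in the GENCODE M21 annotation with Mlx on the other strand. It held 815 counts and Mlx 71, and the part of Mlx reads in its level was not tested. Summed by role, the cap subunits other than ATPases held 255 ± 61.5 CPM in control, 322 ± 32.1 on high-fat diet and 216 ± 28.99 with carnitine (SD, n = 3 each). Their carnitine libraries, at 189 to 246 CPM, lay below the high-fat libraries at 300.3 to 359. The control range, 190.4 to 313 CPM, overlapped both.

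Of the 19 genes with an opposite-strand gene, 12 share exon sequence with it in the GENCODE M21 annotation. The opposite feature held more counts than the proteasome gene in 4 pairs: Nek6 opposite Psmb7, Gm12356 opposite Psmd3, AY074887 opposite Psma4 and Gm16156 opposite Psmb10. In the other direction, Psmc3 held 2156 counts and Slc39a13, which shares 215 bp of exon with it, 178. The 9 opposite features that were tested did not pass in any comparison.

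**Figure D3:**
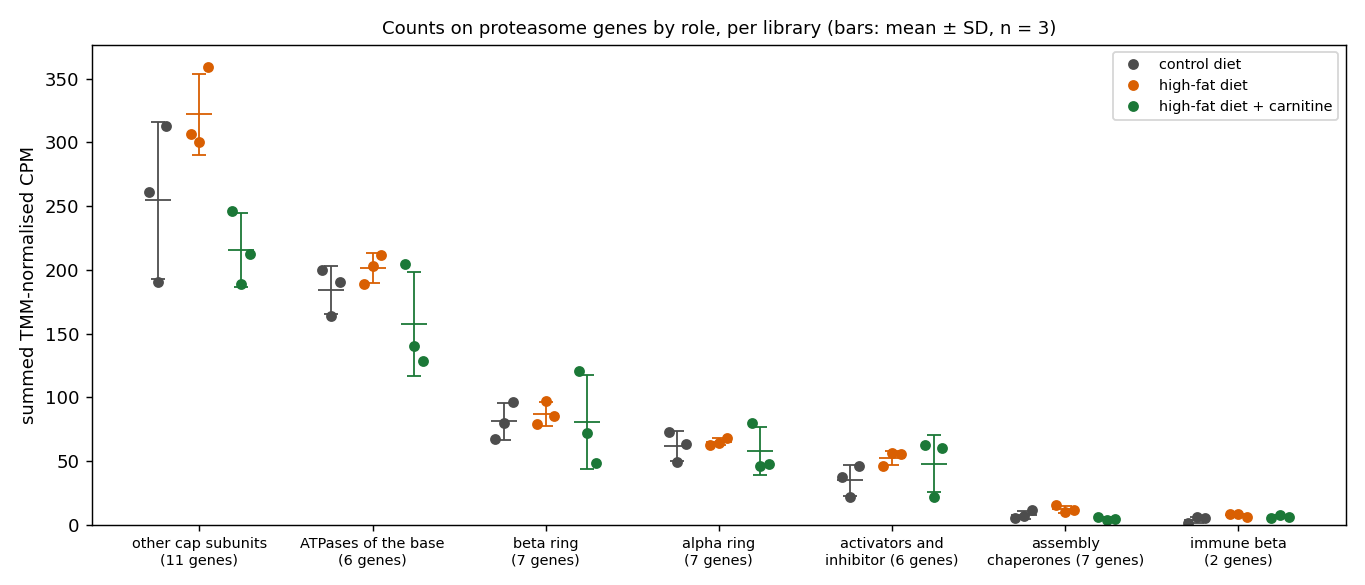
Summed TMM-normalised CPM of the proteasome genes by role, 1 point per library, with mean ± SD (n = 3) per group. The 11 cap subunits other than ATPases hold 300.3 to 359 CPM in high-fat libraries and 189 to 246 with carnitine, without overlap, while the base ATPases and both rings overlap between all groups.

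The alpha ring is made of 7 subunits, Psma1 to Psma7, and forms the gate of the core particle. Summed, they held 61.7 ± 11.7, 65.1 ± 2.64 and 57.8 ± 18.9 CPM in control, high-fat and carnitine libraries. Psma7 had the highest mean CPM of the ring, with 26.6, 12.2 and 10.2 CPM in control 1, 2 and 3, 21.6, 14.2 and 16.0 on high-fat diet and 9.86, 12.4 and 16.3 with carnitine. Control 1 was its highest library and the 3 groups overlapped. In carnitine against high-fat diet, Psma2 and Psma5 had negative log2 fold changes of -1.26 and -0.52, and Psma1, Psma3 and Psma7 also stood below 0. Psma4 and Psma6 were above 0, at 0.09 and 0.45. None of the 7 had groups without overlap on the common scaling. Psma1 and Psma7 are the members of the ring with no opposite-strand gene. Psma4 shares 114 bp of exon in M21 with AY074887 on the other strand, which held 2287 counts against 369 on Psma4.

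The beta ring carries the cutting sites on Psmb5 (chymotrypsin-like), Psmb6 (caspase-like) and Psmb7 (trypsin-like), and Psmb1 to Psmb4 are its structural subunits. The 7 genes together held 81.1 ± 14.6, 86.8 ± 9.16 and 80.6 ± 36.9 CPM in the 3 groups. Psmb4 (chromosome 3, 94791404 to 94794272, minus strand, GRCm39) had 15.7, 19.1 and 26.0 CPM in control, 16.0, 24.8 and 19.3 on high-fat diet and 9.10, 11.6 and 7.69 with carnitine. On the common scaling the carnitine libraries were the 3 lowest, below both other groups. With each class scaled by itself, they stayed below the high-fat libraries but overlapped with control. Its log2 fold change was -1.08 ± 0.40 (SE) against the high-fat diet (edgeR adjusted p = 0.290) and -1.10 ± 0.40 against control (adjusted p = 0.294). Over 19 other settings the adjusted p against control ran from 0.158 to 0.760.

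Psmb2 (chromosome 4, 126571423 to 126603507, plus strand, GRCm39) showed the largest fitted fold among the 38 proteasome genes that passed the filter, on few counts. It had 15, 9 and 17 counts in control, 20, 11 and 22 on high-fat diet and 1, 4 and 2 with carnitine. In CPM these were 5.48, 4.40 and 5.59, then 7.09, 2.55 and 8.17, then 0.38, 1.71 and 0.96. Carnitine libraries did not overlap with either group. The log2 fold change was -2.49 ± 0.84 against the high-fat diet (edgeR adjusted p = 0.256) and -2.31 ± 0.85 against control (adjusted p = 0.294).

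Psmb7, the gene of a catalytic subunit (chromosome 2, 38478048 to 38534099, minus strand, GRCm39), lies opposite Nek6, a mitotic kinase gene. It had 13.1, 18.6 and 23.3 CPM in control, 21.6, 25.1 and 21.5 on high-fat diet and 69.8, 30.0 and 17.8 with carnitine. Carnitine 1 alone stood far above the rest, and the groups overlapped. The summed level of 5 endothelial markers, all present in the table, was also highest in carnitine 1, at 157 CPM, against 31.9 to 48.2 in control, 45.3 to 80.5 in high-fat and 32.2 and 35.1 in the other carnitine libraries. None of the 5 was at 0 throughout a group, and their part in the Psmb7 value was not tested. The log2 fold change against control was 1.10 ± 0.40 (edgeR adjusted p = 0.295), and 0.38 without carnitine 1. With carnitine 1 as the only carnitine library, it was 1.88 and passed (adjusted p = 0.0123), with that lone library assumed to vary like the others. Nek6 shares 405 bp of exon with Psmb7 in M21 and held 32154 counts in all, of which the Psmb7 total amounts to 2.06%. This ratio was 1.11% to 2.43% in 8 libraries and 5.10% in carnitine 1. Nek6 itself had 1048, 1535 and 1194 CPM in control, 1334, 1033 and 1279 on high-fat diet and 1369, 1680 and 1598 with carnitine, and its log2 fold change with carnitine was 0.35 against the high-fat diet (adjusted p = 0.542). The sources used here do not give the strand setting of the counting, so reads of Psmb7 and of Nek6 cannot be told apart.

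Of the other beta genes, Psmb3 was at 5.48, 7.83 and 8.22 CPM in control, 9.58, 13.0 and 11.1 on high-fat diet and 5.31, 7.71 and 7.69 with carnitine. High-fat libraries were above all 6 others, and neither comparison passed. Psmb1, Psmb5 and Psmb6 had log2 fold changes of -0.38, -0.28 and 0.08 with carnitine against the high-fat diet, each smaller than its standard error. The immune forms of the beta subunits replace the constitutive ones after interferon and were near the detection limit. Psmb9 had 0, 2.94 and 1.64 CPM in control, 6.03, 2.55 and 2.23 on high-fat diet and 3.03, 6.85 and 4.33 with carnitine. Carnitine was above control in all libraries, by a log2 fold change of 1.65 ± 0.98, which did not pass. The nearest libraries of these groups were 3.03 and 2.94 CPM. Psmb9 met the filter only through high-fat 1 and carnitine 2 and 3, so this separation is no independent result. Tap1 on the opposite strand shares 212 bp of exon with Psmb9 in M21. It had 0, 0 and 0 counts in control, 2, 3 and 1 on high-fat diet and 8, 5 and 0 with carnitine, and its part in the Psmb9 value was not tested. Psmb10, with 73 counts, fell under the filter at 1.46, 2.94 and 3.29, then 2.13, 5.80 and 3.71, then 2.28, 0.86 and 1.92 CPM. Gm16156 on its opposite strand held 1511 counts. Of 9 leukocyte markers in the table, summed levels were 73.0 to 145 CPM in control, 92.6 to 118 on high-fat diet and 115 to 119 with carnitine, with 3 at 0 in each group (Ptprc, Cd68 and Tyrobp; Cd79a, Tyrobp and Coro1a; Ptprc, Cd79a and Coro1a), and their part in the immune subunits was not tested.

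**Figure D4:**
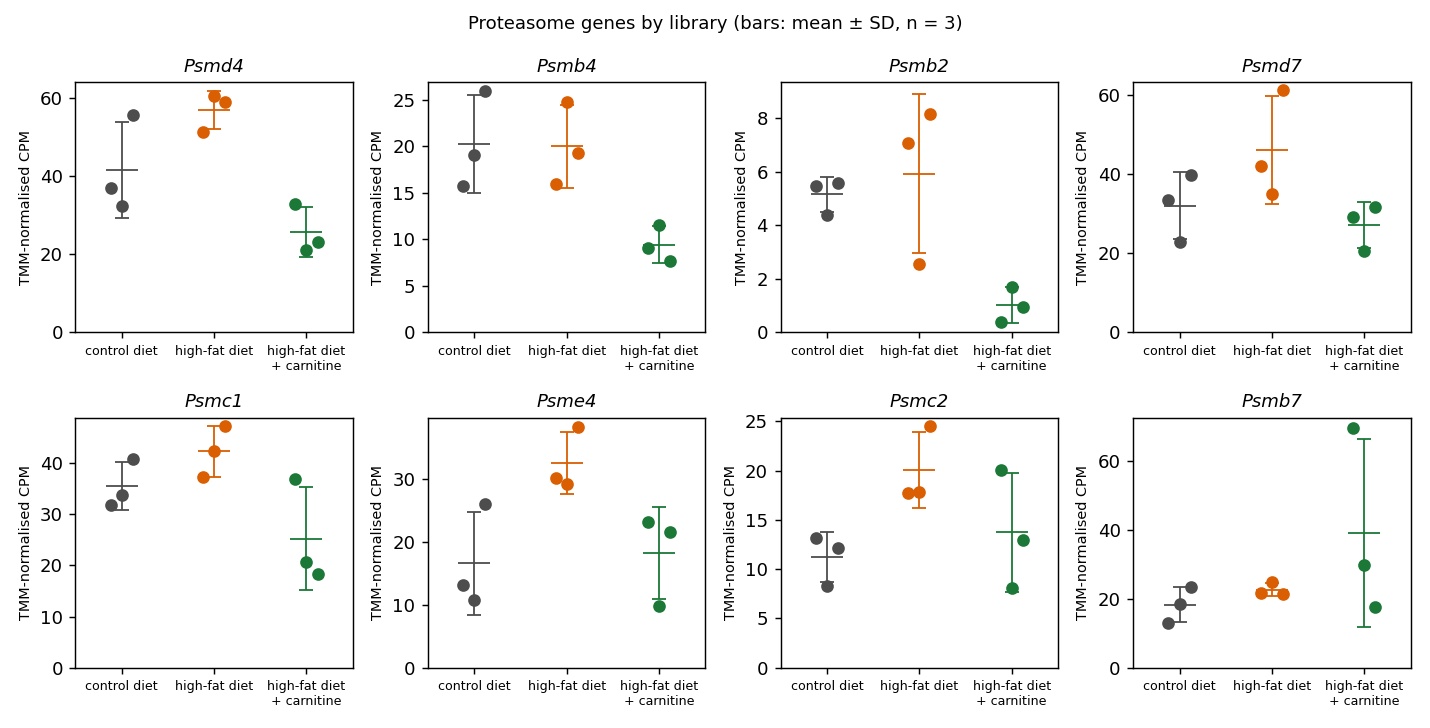
TMM-normalised CPM of 8 proteasome genes in each library, with mean ± SD (n = 3) per group. Psmd4, Psmb4, Psmb2, Psmd7, Psmc1 and Psme4 have all carnitine libraries below all high-fat libraries, Psmc2 has all high-fat libraries above all control libraries, and in Psmb7 carnitine 1 stands at 69.8 CPM.

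The 6 ATPases of the base, Psmc1 to Psmc6, unfold the substrate and open the gate. Psmc3 was the most counted proteasome gene, with 92.4, 80.3 and 86.1 CPM in control, 84.0, 96.3 and 88.8 on high-fat diet and 92.9, 85.2 and 68.3 with carnitine. Its groups overlapped and its log2 fold changes were within 0.13 of 0, at 0.06, -0.13 and -0.07 in the 3 comparisons. Psmc1 had 31.8, 33.8 and 40.8 CPM in control, 37.2, 42.2 and 47.2 on high-fat diet and 36.8, 20.6 and 18.3 with carnitine. Carnitine 1 lay just under the lowest high-fat library, and carnitine 2 and 3 far under it. The log2 fold change was -0.74 ± 0.32 (edgeR adjusted p = 0.362), and -1.11 without carnitine 1.

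Psmc2 had the second smallest p among proteasome genes on the high-fat diet. It stood at 13.1, 8.32 and 12.2 CPM in control, 17.7, 17.9 and 24.5 on high-fat diet and 20.1, 8.14 and 13.0 with carnitine. All high-fat libraries were above control, by a log2 fold change of 0.82 ± 0.42 (edgeR adjusted p = 0.803). Psmc4, Psmc5 and Psmc6 had log2 fold changes of -0.35, -0.05 and 0.76 in that comparison and of -0.02, -0.77 and -0.45 with carnitine. The low value of Psmc5 rested mainly on carnitine 3, at 4.81 CPM against 14.1 and 22.8 in the other carnitine libraries.

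The 11 other cap subunits bind and remove ubiquitin and hold the lid together. Psmd4 is one of the ubiquitin receptors (Rpn10 in yeast) and had the smallest p of the 38 genes in carnitine against high-fat diet. This gene (chromosome 3, 94940005 to 94949925, minus strand, GRCm39) had 36.9, 32.3 and 55.6 CPM in control, 51.4, 60.6 and 59.0 on high-fat diet and 33.0, 20.98 and 23.1 with carnitine. Carnitine libraries did not overlap with high-fat libraries, while control 1 lay between them, control 2 just under carnitine 1 and control 3 among the high-fat libraries. Against the high-fat diet the log2 fold change was -1.15 ± 0.31 (edgeR adjusted p = 0.199). It passed in DESeq2 (adjusted p = 0.0263) and in edgeR without carnitine 1 (-1.36, adjusted p = 0.0290), and the adjusted p ran up to 0.566 in other settings. In carnitine against control it was -0.70 ± 0.31 (edgeR adjusted p = 0.425), and -0.43 without control 3.

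Psmd7, a lid subunit that pairs with the deubiquitinase Psmd14, had 33.6, 23.0 and 39.8 CPM in control, 42.2, 35.0 and 61.3 on high-fat diet and 29.2, 20.6 and 31.7 with carnitine. Its log2 fold change with carnitine was -0.76 ± 0.32 (edgeR adjusted p = 0.348), and -0.50 without high-fat 3, its highest library. Psmd8, another lid subunit, stood at 39.4, 25.0 and 51.0, then 55.3, 29.7 and 34.9, then 20.9, 23.6 and 28.8 CPM. Carnitine was below the high-fat diet in every library of both genes. For Psmd8 the log2 fold change was -0.71 ± 0.34 (edgeR adjusted p = 0.399), and -0.39 without high-fat 1.

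Psmd2, the scaffold of the base and the most counted cap gene, had 43.1, 36.7 and 50.0 CPM in control, 56.0, 52.9 and 52.0 on high-fat diet and 56.5, 49.2 and 44.2 with carnitine. High-fat libraries lay above control, by a log2 fold change of 0.31, and overlapped with carnitine libraries. With each class scaled by itself, high-fat and control libraries of Psmd2 overlapped, and its carnitine libraries lay above control. Psmd3 had the third smallest p on the high-fat diet, with 32.9, 15.2 and 35.5 CPM in control, 28.4, 36.7 and 61.3 on high-fat diet and 30.3, 23.98 and 26.9 with carnitine. High-fat and control overlapped, and the log2 fold change was 0.58 ± 0.35 (edgeR adjusted p = 0.873), 0.21 without high-fat 3 and 0.32 without control 2. Opposite Psmd3 lies Gm12356, which shares 17 bp of exon in M21 and held 3742 counts, with 146, 132 and 153 CPM in control, 174, 133 and 166 on high-fat diet and 95.9, 206 and 175 with carnitine. These groups overlapped, and Gm12356 did not pass.

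The remaining cap genes were Psmd1, Psmd6, Psmd11, Psmd12, Psmd13 and Psmd14, with log2 fold changes of -0.47, -0.50, -0.45, -0.51, -0.37 and 0.03 with carnitine against the high-fat diet. Psmd14 removes ubiquitin chains from the substrate. Over the 11 cap genes, 10 had positive fold changes on high-fat diet and 10 negative ones with carnitine against it. The 7 without an opposite-strand gene were all positive and then all negative, in a class with 59.6% and 69.9% such features, and of the 4 with one 3 were positive and 3 negative, against 45.5% and 39.8%. Both comparisons share the high-fat libraries.

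Activators and the inhibitor bind the ends of the core particle. Psme4 encodes PA200, a large activator of the nucleus, and had the smallest p of the proteasome genes on the high-fat diet. It stood at 13.1, 10.8 and 26.0 CPM in control, 30.1, 29.2 and 38.3 on high-fat diet and 23.1, 9.85 and 21.6 with carnitine. High-fat libraries were above all 6 others. The log2 fold change was 0.95 ± 0.39 on the high-fat diet (edgeR adjusted p = 0.636) and -0.83 ± 0.39 with carnitine against it (adjusted p = 0.395). The first was 1.43 without control 3, and the second -0.55 without carnitine 2. Its opposite-strand class rests on Gm12103, which overlaps it in M21 and for which no counts were used here.

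Psme1, a PA28 subunit that interferon induces, was the gene whose carnitine libraries, at 11.8, 6.85 and 17.3 CPM, were all above its high-fat libraries, at 6.38, 6.27 and 5.94. Control libraries, at 14.6, 4.89 and 6.91 CPM, overlapped both, and its log2 fold change with carnitine of 0.94 ± 0.51 did not pass. The background for such a gene was 10.2% of features, and on class scaling its groups overlapped. Psme3, the nuclear PA28 form, had log2 fold changes of 0.63 and 0.48 in the first and second comparison. Psme2, Psme2b and the inhibitor Psmf1 had 49, 20 and 65 counts in all and fell under the filter.

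The chaperones that assemble the complex held few counts. Psmd9 was the one that passed the filter, with 2.56, 0.98 and 8.22 CPM in control, 4.26, 4.64 and 6.68 on high-fat diet and 1.14, 0 and 3.37 with carnitine. Its carnitine libraries were below the high-fat libraries, and its log2 fold change of -1.79 ± 0.96 did not pass. Psmd9 met the filter only through the high-fat libraries and control 3, so that separation is no independent result. Psmg1, Psmg2, Psmg3, Psmg4, Psmd5 and Psmd10 had 25, 31, 6, 17, 28 and 13 counts in all. Psmg2 had 17, 8 and 2 counts on the high-fat diet, 2, 2 and 0 in control and 0 in each carnitine library, and was not tested in the filtered fit. Without the filter its log2 fold change with carnitine against the high-fat diet did not pass (edgeR adjusted p = 0.341). The rule also took in Psmc3ip, a cofactor of meiotic recombination, and Psme3ip1, which binds PA28 gamma, and neither is a proteasome subunit. Psmc3ip was at 25.2, 47.5 and 35.8 CPM in control, 28.7, 28.5 and 32.3 on high-fat diet and 37.2, 38.5 and 29.3 with carnitine, with overlap between all groups. Its log2 fold changes were -0.27, 0.23 and -0.04, and Psme3ip1, at 0.93 to 8.76 CPM, had -0.44, -0.31 and -0.76.

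The other genes of the pathway were read from 7 lists of 70 genes, of which 68 were in the table and 58 tested. They covered core assembly, other cap genes, Nrf1 and its control, ubiquitin genes, conjugating enzymes, the p97 segregase and muscle ubiquitin ligases. None passed in any comparison by edgeR. On the high-fat diet 42 of 58 log2 fold changes were positive, with carnitine against it 42 of 58 were negative, and against control 33 of 58 were negative. Background shares were 50.6% positive, 50.6% negative and 50.3% negative over all features. Of the 35 list genes without an opposite-strand gene, 28 were positive, 28 negative and 21 negative in these comparisons, against 59.6%, 69.9% and 61.5% of the features of that class. Of the 23 with one, 14, 14 and 12 were so, against 45.5%, 39.8% and 44.0%.

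The muscle ligases held the widest single fold changes of these lists, while the ubiquitin genes had the median farther from 0 with carnitine against the high-fat diet (-0.87 against -0.80) and against control (-0.42 against -0.14). Trim63, which encodes MuRF1, a ligase for myofibrillar proteins, had 205, 162 and 204 CPM in control, 332, 245 and 630.2 on high-fat diet and 322, 167 and 201 with carnitine. High-fat libraries were above control, by a log2 fold change of 1.08 ± 0.30 (edgeR adjusted p = 0.195), and 0.60 without high-fat 3, its highest library. Fbxo32, which encodes atrogin-1, stood at 131, 111 and 179.5 CPM, then 244, 230.4 and 397, then 393, 197 and 122. Its high-fat libraries were also above control, by 1.05 ± 0.34 (adjusted p = 0.400). Without the filter on low counts, edgeR called both (adjusted p = 0.0105 and 0.0212), and without carnitine 1 as well (0.0437 and 0.0259). It called both too without carnitine 2 and 3 (0.0273 and 0.0161), and Fbxo32 from the 6 libraries of the comparison alone (0.0459). In the other settings neither passed, with adjusted p up to 0.9997 for both. Fbxo32 against control with carnitine was at 0.76 ± 0.34 (adjusted p = 0.453), and at 0.19 without carnitine 1. With carnitine 1 as the only carnitine library it was at 1.44 (edgeR adjusted p = 0.00806), where the other groups supply the spread and that library is assumed to vary like them.

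With carnitine against the high-fat diet, Fbxo40, a muscle-specific F-box gene, had 41.1, 48.7 and 49.0 CPM on the high-fat diet against 29.6, 14.1 and 12.5 with carnitine, and 26.3, 23.0 and 38.5 in control. Carnitine did not overlap with the high-fat diet, at a log2 fold change of -1.29 ± 0.35 (edgeR adjusted p = 0.199). Ubb, a polyubiquitin gene, had 199, 158 and 201 CPM in control, 224, 221 and 302 on high-fat diet and 133, 123 and 157 with carnitine. Its carnitine libraries were below all others, at -0.85 ± 0.23 against the high-fat diet (adjusted p = 0.199). DESeq2 called both genes (adjusted p = 0.0368 and 0.0214), and edgeR called Fbxo40 without carnitine 1 (0.0108). In the other settings they did not pass, with adjusted p up to 0.682 and 0.536. Fbxo40 was at -0.69 without carnitine 2 and 3, and Ubb at -0.50 with each class scaled by itself. Trim55, a ligase related to MuRF1, had the smallest p of these genes against control, at 2.92, 6.85 and 4.93 CPM in control, 5.67, 7.43 and 2.60 on high-fat diet and 0.76, 0.86 and 0 with carnitine. It was lowest in the carnitine libraries, by -3.02 ± 0.98 against control (adjusted p = 0.228).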

How the data were processed

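Whole-number gene counts of 9 mouse muscle libraries, 3 per group, were used as deposited by the authors, not normalised, beside the authors' FPKM values, which were used only to compare levels between genes. The kit marked strand, per the labels' protocols. The submitters' processing notes name HTSeq 0.13.5, HISAT2 2.2.0, Bowtie2 2.4.2, edgeR and Trim Galore 0.6.4, without roles, and GRCm39 among other builds. How strand was set in counting is not given.

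Counts were compared in R 4.3.3 with edgeR 4.0.16 (TMM, filterByExpr, robust quasi-likelihood F-test, all 9 libraries in 1 fit with 3 groups), with p-values adjusted by Benjamini-Hochberg over 7523 features in each comparison. Standard errors were derived from F, as |log2 fold change| over its square root. The fit was tested on simulated data. Alternatives used DESeq2 1.42.0, limma 3.58.1, other scalings and filters, a replicate block, and left out libraries. Opposite-strand classes came from gene spans in the table (GRCm39) or in GENCODE M21, whose build differs, so coordinates of genes are those of the table. Promoter windows are RefSeq's, build GRCm38.p6.

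Values in all libraries were given for the 3 proteasome genes with the smallest p per comparison, the most counted of each role, the immune subunits and the 2 most counted opposite features. Psmb3, Psmc1, Psmd7, Psmd8, Psme1 and Psmg2 were added after their values were seen. Members and lists were chosen with earlier results of these data known. One symbol that the rule leaves out is not reported here.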

Additional observations from a re-analysis of the deposited data

How the results depend on the processing

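The count of proteasome genes passing was 0 in each comparison under most settings tried. The exceptions were 1 (Psmd4) in carnitine against high-fat diet with DESeq2 and without carnitine 1, and 1 (Psmb7) in carnitine against control without carnitine 2 and 3. Counts of all features passing moved more. In the order high-fat diet against control (4 features), carnitine against high-fat diet (4) and carnitine against control (32), they were 0, 10 and 18 without TMM, and 68, 26 and 60 without the filter. DESeq2 gave 33, 53 and 79, and leaving out carnitine 2 and 3 gave 66, 25 and 71. Each comparison's 6 libraries alone gave 40, 0 and 10. Scaling each class by itself gave 2 and 0 in the first and second comparison, and a filter at 1 CPM gave 40 and 10. Limma-voom gave 8 in the first and 21 in the third. The cause was not tested.

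Leaving out each library in turn gave 0 to 61, 1 to 84 and 5 to 86 features, each time highest without carnitine 1 (at most 30 without any other library), and 0 to 0, 0 to 1 and 0 to 0 proteasome genes. The median of genes without an opposite-strand gene was 0.22 to 0.39, -0.64 to -0.31 and -0.47 to -0.09, and with one -0.03 to 0.32, -0.66 to -0.072 and -0.33 to 0.11. Genes with no overlap between groups were 6 to 13 higher (13 without control 3) and 0 to 6 lower (6 without control 2) on the high-fat diet. With carnitine against the high-fat diet they were 1 to 4 higher (4 without carnitine 3) and 13 to 21 lower (21 without carnitine 1), and against control 1 to 3 higher and 3 to 12 lower (12 without control 2). Fewer libraries separate more easily, so these counts can only stay or grow. These overlap counts under other settings were added after the data were seen. Class scaling gave a median of -0.18 without an opposite-strand gene in carnitine against high-fat diet, and 0 higher and 6 lower genes there, and 2 higher against control. Library totals alone gave 0 higher genes there and shifted the median of all features by 0.17, -0.19 and -0.02.

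Same-numbered libraries did not deviate together (correlations of -0.01 to 0.03, -0.16 to 0.03 and -0.02 to 0.14). With 3 libraries per group this check cannot settle whether the numbers pair the samples. The fit with the replicate number as a block gave 10, 3 and 31 features and 0 proteasome genes in each comparison. The 10 genes under the filter held 6 to 73 counts over all libraries, and none of them passed in the fit without the filter.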
